A study of Mus musculus with 3 samples.

Results

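The intergenic indels are the insertions and deletions (indels) on chromosomes 1 to 19 that the deposited annotation places between genes, outside every transcript. They were taken from 3 lists of indels and matched on chromosome, start, reference allele and alternative allele. The union held 6848 of the 23347 indels listed in the whole series, with 2744 entries in the parental library, 1823 in the Y positive library and 3310 in the Y negative library. The smallest distance from a member to a transcript was 1001 bases, so nothing closer to a gene entered the set.

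MB49 is a cell line from a bladder cancer of the mouse, grown here in culture. Its genomic DNA was captured for exome sequencing from the parental line, from a derivative labelled Y positive and from a derivative labelled Y negative, with 1 library each. The labels do not say whether a derivative is a single clone or how it was obtained. Because no line has a replicate, every comparison is between libraries or between groups of entries, and no difference has a replicate check. The sample descriptions MBN and MBP stand on the Y positive and Y negative samples. The lists held 9 entries on chromosome Y for Y positive, 4 for parental and 0 for Y negative. The 9 against 0 goes with the genotype labels of the derivatives, and the parental label gives no Y state. These are counts of listed indels, not of reads on chromosome Y.

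Exome capture pulls down DNA fragments with probes against coding exons, and a few fragments from the rest of the genome come along, so sequence between genes is usually read thinly and unevenly. Intergenic DNA holds many short tandem repeats, in which a unit of 1 to 6 bases is repeated, and these gain and lose units by slippage of the DNA polymerase, which mismatch repair normally corrects. Runs of A or T are a common site of such slippage, in the cell and also during library amplification. An indel seen in few reads can be read as homozygous only because too few reads were drawn to show a second allele.

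The alleles below show the kinds of sequence that were gained or lost between genes. They were chosen from the longest of those with 20 or more reads in every library, the deepest private ones and those whose read shares differ between libraries. Capitals mark the longest stretch in which a unit of 1 to 6 bases is repeated at least 2 times without a break, and letters are given 5′ to 3′ on the strand of the files.
30-base deletion, chr3:92541795-92541824: ctgccaCAGCAGccaccactgccaccactg
16-base deletion, chr1:87345084-87345099: TCTCTCTCTCtgtgtg
12-base insertion, chr3:92411225: ACAGAGACAGAG
12-base insertion, chr19:9681548: caATATttgaaa
8-base insertion, chr3:8246418: ATATATgt
6-base insertion, chr7:148364157: gacgCC
6-base deletion, chr1:87345002-87345007: tctaTT
All positions are those of the files, which run past the last gene of GRCm38 (mm10) on chromosome 1 (197068017 against 195291439) and are therefore not mm10. The only other build named in the submitters' processing notes is mm9.

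Both long alleles in the same stretch of chromosome 3 were read without a single reference read in any library. The 30-base deletion was carried by 25 of 25 parental reads, 24 of 24 Y positive reads and 26 of 26 Y negative reads, and lay 12246 bases from the nearer transcript, ENSMUST00000029527. The 12-base insertion stood in 23 of 23, 30 of 30 and 23 of 23 reads, given in that order, 12778 bases from ENSMUST00000138403. The lower ends of the exact 95% intervals of these allele fractions were between 0.852 and 0.884. The 8-base insertion was heterozygous in each, in 22 of 43, 14 of 31 and 11 of 39 reads. The longest deletion with 20 or more reads in every library, 34 bases at chr1:84987070-84987103, was heterozygous and carried by 18 of 53, 24 of 82 and 22 of 79 reads. A 19-base deletion at chr18:66671190-66671208 stood in 144 of 144, 104 of 104 and 107 of 107 reads.

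Most intergenic entries rested on 2 reads. Entries of exactly 2 reads were 64.5% of the parental, 56.8% of the Y positive and 66.5% of the Y negative members, and both reads carried the indel in 1769 of 1771, 1035 of 1035 and 2201 of 2201 of them. The median depth was 2 reads in each library, against 9, 13 and 7 reads over all entries of the same lists. The greatest depth was 629, 622 and 631 reads. Members supplied 8.16%, 7.34% and 8.56% of all reads counted at listed indels. Of the members' own reads, 70.9%, 76.6% and 68.0% came from entries of 20 or more reads.

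The 3 libraries listed nearly the same number of deeply read members and very different numbers of thinly read ones. At 20 or more reads there were 289 entries for parental, 284 for Y positive and 285 for Y negative. From 5 to 19 reads there were 300, 253 and 291. Below 5 reads there were 2155, 1286 and 2734, so Y negative listed the most and Y positive the fewest. In Y negative 1 entry was listed with 0 reads and was counted below 5. At the limits, 104, 63 and 172 entries had 4 reads, 61, 48 and 57 had 5, 14, 13 and 11 had 19, and 9, 13 and 15 had 20.

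**Figure D1:**
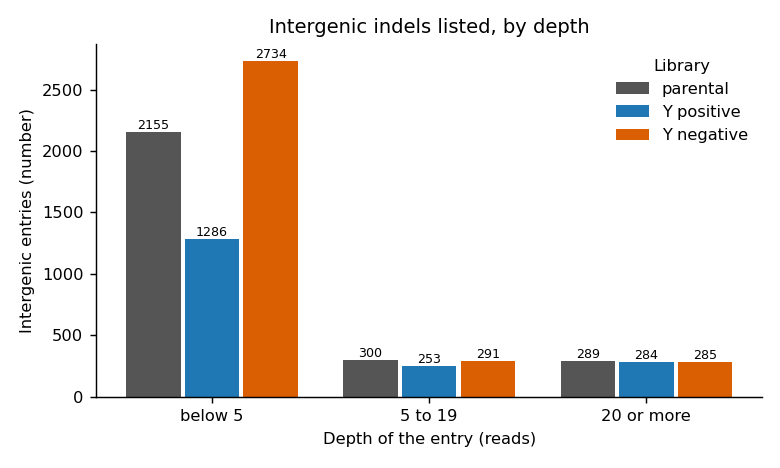
The number of intergenic entries (vertical axis) is drawn for each depth class in reads (horizontal axis), with 1 bar per library. The bars are level at 20 or more reads (289, 284 and 285) and unequal below 5 reads (2155, 1286 and 2734).

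The share of entries below 5 reads was 82.6% for Y negative (exact 95% interval 81.3 to 83.9), 78.5% for parental (76.95 to 80.1) and 70.5% for Y positive (68.4 to 72.6). By two-sided Fisher exact tests with Benjamini-Hochberg adjustment over 9 tests, this share differed between Y negative and Y positive by 12.1 percentage points (adjusted p = 4.28e-22). It was 7.99 points lower in Y positive than in parental (70.5% against 78.5%, Fisher exact test, adjusted p = 5.60e-09) and 4.06 points higher in Y negative than in parental (adjusted p = 2.20e-04). Such a test compares the entries of 2 libraries, and entries on the same reads are not independent. Among intronic indels of the same chromosomes the share below 5 reads was 30.6%, 27.4% and 21.5% in Y negative, parental and Y positive, the same order at a lower level.

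Genotype changed with depth in the same way in each library. Below 5 reads, 95.8% of the parental, 94.7% of the Y positive and 95.1% of the Y negative members were deposited as homozygous. From 5 to 19 reads the shares were 32.0%, 30.4% and 30.9%. At 20 or more reads they were 16.96% (49 of 289), 17.6% (50 of 284) and 16.8% (48 of 285), and no pair of libraries passed the Fisher exact test (adjusted p = 1 for each). The exact 95% intervals at that depth all lay between 12.7% and 22.5%. Intronic indels with 20 or more reads were homozygous more often, at 26.7%, 26.6% and 25.04%, a difference that was not tested. Members with 2 alternative alleles at 1 site, 20, 26 and 22 entries at 20 or more reads, were 0 in each library below 5 reads.

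Sharing between the lists followed depth. All 3 libraries listed 347 of the 6848 members, 5.07% (exact 95% interval 4.56 to 5.61), 2 of the 3 listed 335, and 6166 were private, listed in 1 library alone. Without entries of a quality score under 50 the share in all 3 lists was 8.08%. Of the private ones 2720 were listed for Y negative, 2154 for parental and 1292 for Y positive. Where no library listing the member had 5 reads, 5769 of 5930 members were private and 19 were in all 3 lists (0.320%, 0.193 to 0.4999). Where the greatest depth was 5 to 19 reads, 107 of 503 were in all 3 lists (21.3%). Where it was 20 or more, 221 of 415 were (53.3%, 48.3 to 58.1). A member in 3 lists has 3 chances to reach a class and a private one has 1. Part of this rise can therefore come from the classes themselves. With each entry classed by its own depth, the share in all 3 lists still rose. For parental it went from 1.16% below 5 reads through 38.7% to 71.3% at 20 or more. The steps were 3.03%, 41.1% and 71.8% in Y positive, and 1.24%, 41.9% and 67.0% in Y negative.

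The overlap of 2 lists was an unequal share of each. Y negative and Y positive had 439 members in common, 13.3% of the former and 24.1% of the latter. Y positive and parental also had 439 in common, 24.1% and 16%. Y negative and parental had 498, 15.1% and 18.2%. Over the members with 20 or more reads in at least 1 library these shares lay between 77.7% and 81.2% for every pair, with Jaccard indices (members in both lists over members in either) of 0.662, 0.642 and 0.673. At all depths the same indices were 0.0935, 0.106 and 0.0896. A member in more lists has more chances to reach 20 reads, so part of this contrast can come from the selection.

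Homozygous members that were read deeply were nearly all in every list. At 20 or more reads, 46 of 49 homozygous parental entries (93.9%), 47 of 50 Y positive entries (94.0%) and 46 of 48 Y negative entries (95.8%) recurred in every list. Of the other genotypes at that depth, 66.7%, 67.1% and 61.2% were. Among intronic indels the homozygous shares were 95.7%, 96.4% and 96.1%, and the shares of the other genotypes were 55.5%, 51.5% and 51.3%. Below 5 reads, 1.07%, 2.96% and 1.19% of homozygous members were in all 3 lists, against 7.46%, 8.94% and 7.65% of homozygous intronic indels. The interval of each intergenic share below 5 reads ended under 4.07% and that of each intronic one began above 6.05%.

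**Figure D2:**
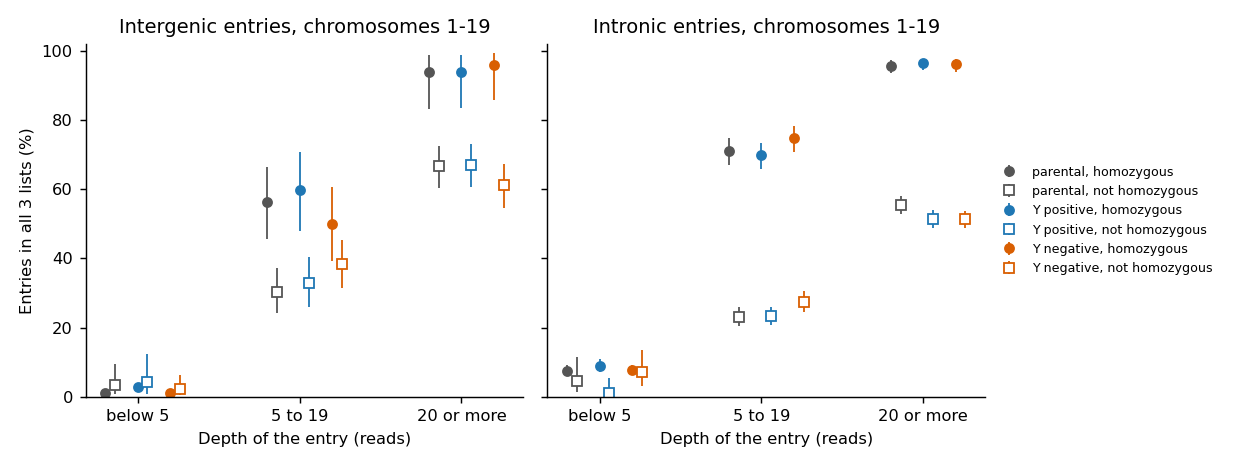
The share of entries found in all 3 lists (vertical axis, percent) is drawn by depth class in reads for intergenic and intronic indels, with filled points for homozygous and open points for other genotypes. Bars are exact 95% intervals. Both panels rise with depth, and homozygous entries at 20 or more reads stand at 93.9% to 95.8% between genes.

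Genotypes matched where depth allowed a comparison. Of the 177 members with 20 or more reads in each of the 3 libraries, 170 had the same deposited genotype throughout (96.0%, exact 95% interval 92.0 to 98.4). These were 124 heterozygous, 36 homozygous and 10 with 2 alternative alleles. Of the 170 shared members that fell under 20 reads in at least 1 library, 134 had the same genotype (78.8%, 71.9 to 84.7). Depth at the 347 shared members was close between libraries, with a median log2 ratio of 0 for Y negative over Y positive (95% interval -0.02 to 0.04) and -0.06 for Y positive over parental (-0.12 to 0).

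Private members at 20 or more reads numbered 36 for parental, 36 for Y positive and 35 for Y negative. Heterozygous private members had median allele fractions, the reads with the indel over all reads at the site, of 0.239 (29 entries), 0.325 (26) and 0.286 (31). Those in all 3 lists had medians of 0.464 (149), 0.455 (146) and 0.471 (131). An allele fraction under 0.25 was seen in 16 of the 29 parental, 8 of the 26 Y positive and 11 of the 31 Y negative private entries, and in 19 of 149, 21 of 146 and 22 of 131 of the entries in all 3 lists.

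Some private entries that were read deeply had a listed neighbour in another library, and few thinly read ones did. At 20 or more reads, another library listed some indel at the same start in 10 of the 36 private parental members, 7 of the 36 of Y positive and 7 of the 35 of Y negative. Within 5 bases the counts were 16, 13 and 9. Below 5 reads, any listed indel within 150 bases in another library was found for 1.39% of 2011, 2.39% of 1170 and 1.43% of 2588 private members. Lists give no reads at sites they do not name, so whether the other libraries had reads at the remaining sites cannot be seen from them.

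The deepest private members were heterozygous and mostly low in allele fraction. In parental, a C deletion at chr12:101982905 was carried by 21 of 172 reads (0.122), an insertion of GGC at chr3:13669909 by 25 of 149 (0.168) and an A deletion at chr19:29223924 by 19 of 92 (0.207). In Y positive, an A deletion at chr19:56114404, 106260 bases from the nearer transcript, was carried by 68 of 197 reads (0.345, exact 95% interval 0.279 to 0.416). The 6-base deletion at chr1:87345002 and the 12-base insertion at chr19:9681548 were carried by 25 of 176 and 8 of 107 reads in that library. In Y negative, a C insertion at chr17:13398664 was carried by 42 of 242 reads (0.174) and a 7-base insertion at chr18:86017494 by 36 of 208 (0.173). Another in Y negative, a G deletion at chr17:25464087, is the second alternative allele of a site described below, and so not a separate place.

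Distance to genes went with depth. The median distance of all members to the nearer neighbouring transcript was 29972 bases (exact 95% interval 28536 to 31734), and 26.1% lay within 10 kb, 50.5% at 10 to 100 kb and 23.4% beyond. For members below 5 reads in every list the median was 31924 bases (30077 to 33736). For those reaching 5 to 19 reads it was 22044 (19301 to 27392), and for those reaching 20 or more it was 19298 (18809 to 21754). Beyond 100 kb, 39 of 1601 members reached 20 reads (2.44%, 1.74 to 3.31), against 136 of 1787 within 10 kb (7.61%, 6.42 to 8.94) and 240 of 3460 between (6.94%, 6.11 to 7.83). These comparisons were not tested, since neighbouring members share reads and annotation.

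A few members far from any annotated transcript were nevertheless read deeply and alike. A T insertion at chr1:144021871, 810830 bases from ENSMUST00000158793, was carried by 133 of 133 parental reads, 125 of 125 Y positive reads and 130 of 130 Y negative reads. A T deletion at chr3:11824042, 669605 bases away from the nearer transcript, was heterozygous in 25 of 43, 21 of 50 and 27 of 59 reads. A T deletion at chr9:17589703, at 507008 bases, was heterozygous in 44 of 88, 45 of 87 and 59 of 93 reads. The deepest heterozygous member was a CG insertion at chr3:93433142, 22351 bases from ENSMUST00000071173, in 288 of 629, 292 of 622 and 290 of 631 reads, with allele fractions of 0.458, 0.469 and 0.460.

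Size and sequence also changed with depth. Deletions were 4826 of the 6848 members (70.5%), and the longest insertion was 97 bases and the longest deletion 72. Indels of 1 base were 59.8% of the 415 members reaching 20 reads and 25.99% of the 5930 below 5 reads. Indels of 5 or more bases were 14.9% and 16.2% of the same groups. The share of deletions was 69.2% and 70.3%.

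The repeat unit of each allele was taken as the shortest sequence whose repetition spells the whole inserted or deleted sequence, read on either strand and from any starting base. Single A or T bases were 42.4% of the members reaching 20 reads (176 of 415), 30.02% of those reaching 5 to 19 and 15.97% of those below 5 (947 of 5930). Units of 2 bases ran the other way at 10.1%, 16.1% and 29.2%. Of the 1853 members with such a unit, 1161 spell it 1 time, as an allele of 2 bases, and 692 spell it 2 or more times (37.3%). The sequence around the indels was not read, so whether an allele of 2 bases lies in a longer repeat is not known here. The unit AC, which covers CA, GT and TG, was the most frequent, with 1114 members in all (16.3%), of which 432 spell it 2 or more times. The unit AG had 494 members and the unit AT 220, of which 205 and 53 spell it 2 or more times. The unit CG had 25 members, 23 of them alleles of 2 bases.

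The change in kind was steepest between 2 and 3 reads. Of the 5007 entries with exactly 2 reads, 31.6% had a 2-base unit (exact 95% interval 30.4 to 32.9) and 13.8% were single A or T bases. Of the 787 entries with 3 reads these were 16.01% (13.5 to 18.8) and 27.2%. At 20 to 49 reads they were 8.21% and 44.4%, and at 50 or more reads 12.9% and 39.6%. The lowest quality score in each list was between 30.1 and 30.7. At 2 reads the median quality score was 39.7 for single A or T bases, 43.7 for 2-base units and 53.7 for units of 3 to 6 bases. The part of such a quality minimum in the mix of kinds was not tested. At 20 or more reads single A or T indels were 42.2% for parental, 41.2% for Y positive and 43.5% for Y negative, and no pair passed the Fisher exact test (adjusted p = 1 for each).

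**Figure D3:**
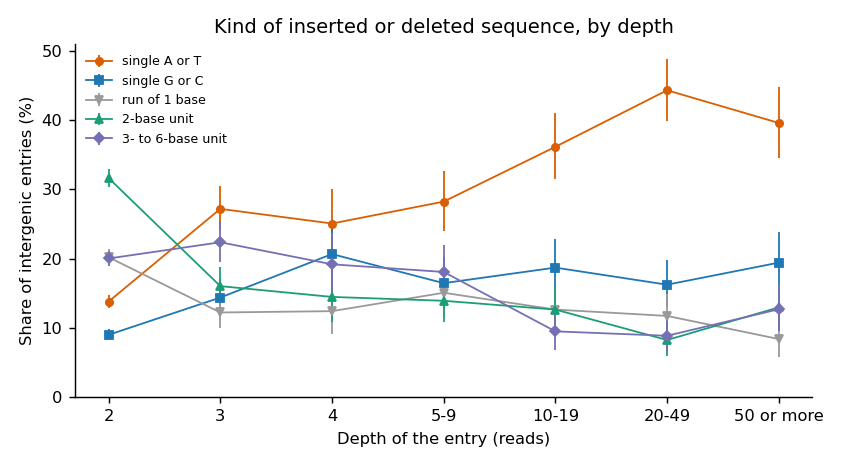
The share of intergenic entries of all 3 libraries (vertical axis, percent) is drawn for each kind of inserted or deleted sequence against the depth of the entry in reads. Bars are exact 95% intervals, and indels in several lists count once per list. Entries with a 2-base unit go from 31.6% at 2 reads to 16.01% at 3 reads, while single A or T bases go from 13.8% to 27.2%.

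Intronic indels had a larger share of 2-base units than the members from 5 reads up. From 5 to 19 reads, 2-base units were 28.8%, 27.2% and 28.7% of intronic entries in parental, Y positive and Y negative, and 13.7%, 13.4% and 12.7% of intergenic ones. The exact 95% intervals of the intergenic shares ended at or under 18.3% and those of the intronic shares began at or above 25.01%. At 20 or more reads the shares were 18.7%, 20.1% and 18.2% of intronic and 10.7%, 8.80% and 11.2% of intergenic entries, with intronic intervals from 16.59% up and intergenic ones to at most 15.5%. Below 5 reads the shares were close, at 32.2%, 27.2% and 30.8% of intronic and 28.9%, 27.1% and 29.1% of intergenic entries. These differences were not tested.

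Kind and size were also set against genotype among the members with 20 or more reads in every library. Of the 36 that were homozygous in all 3, single A or T bases were 10 (27.8%) and indels of 5 or more bases 9 (25%). Of the other 141, single A or T bases were 69 (48.9%) and indels of 5 or more bases 20 (14.2%). With 36 indels the first group is small, and the difference was not tested.

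Some members had a neighbour within the length of 1 read. Of the 6848, 1241 lay in 491 runs in which each member starts within 150 bases, the read length, of the last. Among members reaching 20 reads 48.4% were in such runs, and among those below 5 reads in every list 14.6%. The largest run held 21 members from chr2:181652142 to 181652793, of which 20 were listed for parental, 21 for Y positive and 17 for Y negative, with median depths of 32.5, 27 and 19 reads. The next largest, 13 members at chr18:13107714-13107875, had 13, 13 and 4 listed in that order, with median depths of 4, 5 and 7 reads. A run of 11 members at chr10:117025980-117026223 had 10, 5 and 0 listed, and no entry in it was above 5 reads. Another run of 11 members, at chr11:53953724-53954032, had 9 listed in each library, with median depths of 20, 16 and 15 reads.

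Insertions and deletions stood next to each other in places. Within 10 bases, parental listed 56 such pairs, Y positive 53 and Y negative 95, and the 2 entries had the same genotype in 55, 51 and 92 of them. Of the entries in these pairs, 22 of 104, 23 of 97 and 25 of 175 had 20 or more reads. Below 5 reads 94.7% to 95.8% of members were homozygous, so 2 thinly read entries mostly match in genotype whether paired or not. The deepest homozygous members were also an insertion beside a deletion. A deletion of TT at chr8:103161416-103161417 and an insertion of AGA at chr8:103161417, 17021 bases from ENSMUST00000172418, had identical read counts, 154 of 154 for parental, 189 of 189 for Y positive and 157 of 157 for Y negative. The next homozygous member by depth, a CA insertion at chr11:37504635, stood in 128 of 128, 142 of 142 and 139 of 139 reads.

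Members were not spread evenly over the chromosomes. Chromosome 8 held the most, 829, and chromosome 3 held 660, while chromosome 19 held 132. In each of the 19 chromosomes Y negative listed more members than Y positive, from 1.47 times as many on chromosome 13 to 2.60 times on chromosome 2. Of 258 windows of 10 Mb with any listed indel, the median window held 16 members that were below 5 reads in every list. The fullest, chr8:50000001-60000000, held 206. The 19 windows with at least 50 of them held 34.8% of all such members.

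The windows fullest of thinly read private members were full in each of the 3 lists, although a private member is by definition in 1 list alone. In chr8:50000001-60000000 the private members below 5 reads numbered 60 for parental, 45 for Y positive and 90 for Y negative. In chr8:110000001-120000000 they numbered 45, 41 and 63, and in chr11:40000001-50000000 58, 30 and 68. Over the 258 windows the counts had a Pearson correlation of 0.923 between Y negative and parental, 0.868 between Y negative and Y positive and 0.854 between Y positive and parental. Spearman correlations were 0.507, 0.409 and 0.485. Each point is the same stretch of genome in both libraries, with the same gene content, and the few full windows weigh most in the Pearson values.

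Some of the windows full of thinly read members also held many homozygous indels inside and near genes. Each window was ranked by its indels outside intergenic sequence that were homozygous in all 3 libraries with 20 or more reads in each, a measure the members do not enter. The 20 highest windows, 7.75% of all, had between 12 and 77 of them. They held 29.7% of the members below 5 reads in every list (1764 of 5930), 18.7% of those reaching 5 to 19 reads and 12.3% of those reaching 20. Of the indels outside intergenic sequence counted as heterozygous they held 15.1% (211 of 1397), more than their share of windows. By library they held 28.5% of the private members below 5 reads for parental, 30.1% for Y positive and 29.3% for Y negative. Of the members with 20 or more reads in every library, the 20 windows held 12 of the 36 homozygous ones (33.3%). They held 11 of the 141 others (7.80%), close to their share of windows. Not every full window was among them. In chr11:30000001-40000000 there were 149 members below 5 reads and 2 such homozygous indels. The chromosome 8 windows named above were among the 20, with 13 such indels each. Over the 258 windows, members below 5 reads in every list and such indels had a Spearman correlation of 0.332 and a Pearson correlation of 0.668.

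**Figure D4:**
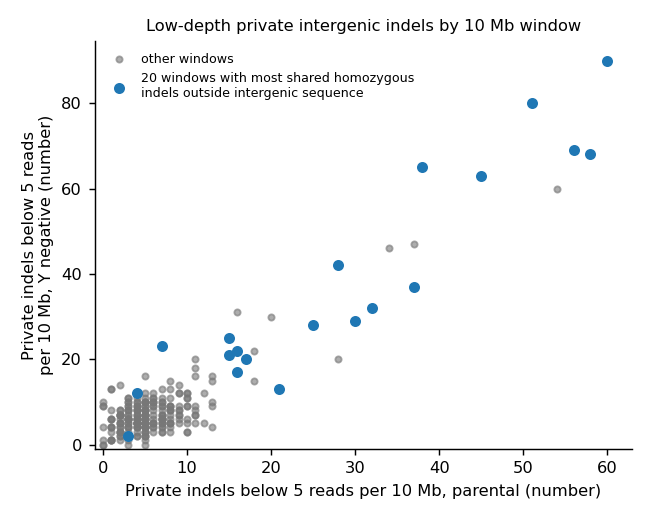
Each point is a 10 Mb window, with the number of private intergenic indels below 5 reads in parental (horizontal axis) and in Y negative (vertical axis). Blue points are the 20 windows with most shared homozygous indels outside intergenic sequence, and the fullest of them, at 60 and 90 indels, lies at the upper right.

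Of the 3 windows with most members at 20 or more reads in all 3 libraries, 1 was also among the 20 highest. The window chr17:30000001-40000000 held 15 of the 177, the most, between 36368305 and 39983625, at depths of 20 to 125 reads, and 7 of them were homozygous in all 3 libraries. They fell into 8 groups more than 150 bases apart. The windows chr3:90000001-100000000 and chr13:60000001-70000000 held 8 each, of which 4 and 0 were homozygous throughout. The chromosome 3 window is the one among the 20, with 56 homozygous indels outside intergenic sequence, and it also held 76 members below 5 reads in every list. The windows on chromosomes 17 and 13 had 0 such homozygous indels and held 18 and 28 members below 5 reads.

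Allele fractions were set side by side wherever 2 libraries listed the same indel with 20 or more reads each and no second alternative allele. A two-sided Fisher exact test of reference and indel reads was run at every such indel of the files, with Benjamini-Hochberg adjustment over all of them. The share of all tested indels that passed was 0.794% between Y negative and Y positive, 0.874% between Y positive and parental and 0.302% between Y negative and parental. Of the members, 2 of 188 passed in the first comparison (1.06%, exact 95% interval 0.129 to 3.79), 6 of 195 in the second (3.08%, 1.14 to 6.58) and 1 of 193 in the last (0.518%, 0.0131 to 2.85). The intervals of the first and last hold the share over all indels, while that of the second starts above it. That rests on counting 2 indels that stand 3 bases apart separately. Counted as 1 place, 5 of 194 passed (2.58%, 0.842 to 5.91), an interval that starts just under the share over all indels. That share, 0.874%, was still counted per indel. The 2 shares are then in unlike units and do not decide whether members passed more often. In the second comparison 5 members were higher in Y positive and 1 was lower, where 0.729% and 0.146% of all tested indels were, and the 2 neighbouring indels are among the 5. The comparisons share libraries, so an indel that passed in both is not a repeated finding. The median absolute difference in allele fraction over members was 0.0506, 0.0490 and 0.0385 in the same order.

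**Figure D5:**
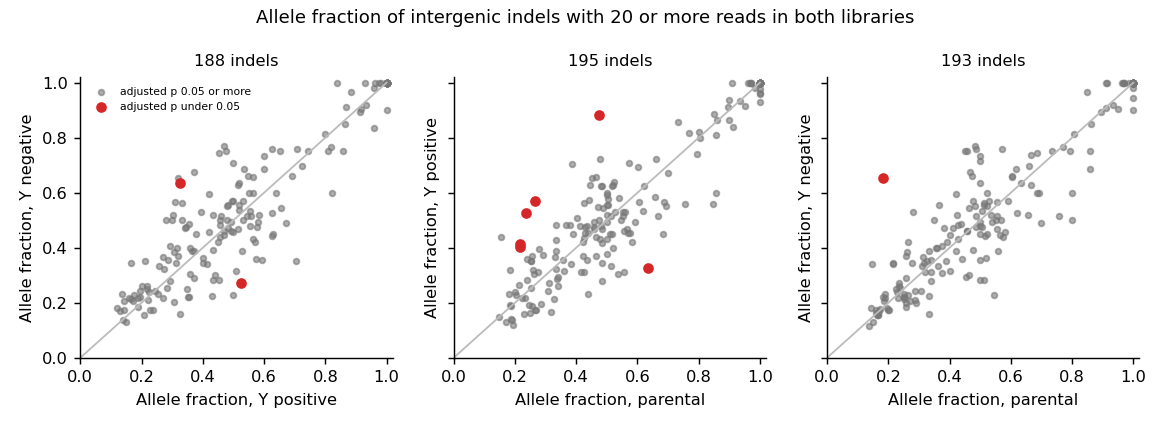
The allele fraction of each member with 20 or more reads in both libraries is drawn for the 3 pairs of libraries, with 188, 195 and 193 indels, and the line marks equal fractions. Red points are the 2, 6 and 1 indels with an adjusted p under 0.05.

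At chr17:25464086-25464087, 3742 bases from ENSMUST00000115132, a deletion of GG was carried by 45 of 95 parental reads (0.474, exact 95% interval 0.370 to 0.579) and 151 of 171 Y positive reads (0.883, 0.825 to 0.927). Y positive was higher by Fisher exact test (adjusted p = 1.39e-09). In Y negative the site was deposited with 2 alternative alleles, the GG deletion in 55 of 138 reads and the deletion of 1 G in 52, and it was not tested there. The parental and Y positive intervals do not overlap, and that of Y negative, 0.316 to 0.485, overlaps the parental one.

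A G deletion at chr7:7230947, 4080 bases from ENSMUST00000000619, was lower in Y positive than in both other libraries. It was carried by 100 of 158 parental reads (0.633), 65 of 199 Y positive reads (0.327) and 90 of 142 Y negative reads (0.634). Fisher exact tests gave an adjusted p of 7.80e-06 for Y positive against parental and 1.42e-05 for Y negative against Y positive. A G deletion at chr3:98384074 went the other way, with 34 of 144 parental reads (0.236), 83 of 158 Y positive reads (0.525) and 34 of 125 Y negative reads (0.272). It passed in the same 2 comparisons (Fisher exact test, adjusted p = 1.02e-04 and 0.00368).

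On chromosome 19 a CA insertion at 9681627 and a TG deletion at 9681630 to 9681631, 47889 bases from ENSMUST00000090527, had nearly equal counts. The insertion was carried by 63 of 291 parental reads (0.216), 134 of 325 Y positive reads (0.412) and 135 of 395 Y negative reads (0.342), and the deletion by 64 of 297, 135 of 336 and 140 of 407. Both passed between Y positive and parental (Fisher exact test, adjusted p = 8.57e-05 and 1.74e-04). Between Y negative and parental they did not (adjusted p = 0.0743 and 0.0557, Fisher exact test). They start 3 bases apart and the same reads cover both, so they count as 1 place. The Y positive private insertion at chr19:9681548 lies before them within 150 bases, the read length, and is not a separate stretch.

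The 16-base deletion at chr1:87345084-87345099, shown above with its TC and TG repeats, lay 35728 bases from ENSMUST00000160587. It was carried by 11 of 60 parental reads (0.183), 14 of 44 Y positive reads (0.318) and 17 of 26 Y negative reads (0.654, exact 95% interval 0.443 to 0.828). It passed between Y negative and parental alone (Fisher exact test, adjusted p = 0.0225) and not between Y negative and Y positive (adjusted p = 0.401 by the same exact test). The call is lost with a minimum of 30 reads, since Y negative had 26, and when 1 indel is kept per run of neighbours within 150 bases. The Y positive private deletion at chr1:87345002 lies 82 bases before it. An A deletion at chr9:109419100 was carried by 21 of 79 parental reads (0.266), 41 of 72 Y positive reads (0.569) and 32 of 76 Y negative reads (0.421), with an adjusted p of 0.0315 between Y positive and parental (Fisher exact test).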

How the data were processed

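Genomic DNA of 3 MB49 lines was captured and sequenced as pairs of 150-base reads, per the labels. BWA, Picard, mm9 and mm10 are named, without roles, in the submitters' processing notes. The variant caller is not given in the sources used here. In the deposited lists, 1 per library, depth and reads per allele are whole-number counts, and the deposited quality score is phred-scaled. The deposited genotype field joins genotype, reads per allele and depth. All listed indels summed to 322980 reads for parental, 317111 for Y positive and 329187 for Y negative. Tests ran in Python 3.11.15 with scipy 1.17.1. Depth classes were below 5, 5 to 19, and 20 or more reads. Intervals are exact (Clopper-Pearson; for medians, from order statistics) at 95%, and cover counting error only, as reads carry no molecular identifiers. The allele fraction step was tested on simulated data. Named indels were those with a differing allele fraction, the deepest private and shared ones, and, with 20 or more reads in every library, the longest and the farthest from a transcript; windows were the 3 with most members at 20 or more reads in all 3 libraries. The members and lists were chosen with earlier results of these data known. Intronic indels, the ranking of 20 windows and the count of places were added after the values were seen. No gene symbols were matched.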

Additional observations from a re-analysis of the deposited data

How the results depend on the processing

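No paired analysis was possible because each line has 1 library. Of 73 alternative values, 67 kept their side of the threshold, stayed in the main interval or, for counts of indels, stayed near the main count. Direction was checked only for tests that passed, and 0 of those reversed. Among tests that did not pass, some differences changed sign. The homozygous share in Y negative minus Y positive was -0.764 points, and 0.620 points with a minimum of 10 reads. The share of members in all 3 lists, 5.07%, was 4.17% with 1 indel kept per run within 150 bases and 8.08% without entries of a quality score under 50. Of members reaching the depth minimum, the share in all 3 lists was 53.3%, but 59.6% when matched on chromosome and start only and 45.9% with a minimum of 10 reads. The 1 member that differed between Y negative and parental fell to 0 with 1 indel kept per run and with a minimum of 30 reads. The tests of depth, genotype and kind of sequence kept their calls under each alternative run. Depth limits most members: at 2 reads neither a second allele nor absence from another list can be read.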
